A study of Arabidopsis thaliana with 9 samples.

Results

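The loci described here are the Arabidopsis nuclear genes with abundant tags on their antisense strand. Members were selected on their antisense counts: the antisense row of a gene on chromosomes 1 to 5 had to sum to 100 or more tags over the 8 libraries. There were 358 such loci among 13004 nuclear loci with any antisense tag, 2.753% of them, in a table of 34242 sense and antisense rows. They held 244343 tags, 72.1% of all nuclear antisense tags. Since the antisense totals chose the members, their abundance is given as a description without a test.

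The tags came from EXPRSS, a Tag-seq method in which an oligo-dT primer starts the cDNA, the cDNA is sheared, and only the piece that carries the primer is sequenced, so that each transcript gives a tag with a known strand. Leaves were taken from slh1, a mutant with an altered allele of the immune receptor gene RRS1, and from the wild type No-0, both of the ecotype Nossen. Plants of both genotypes were 4 weeks old, were grown in short days at 28 °C and were moved to 21 °C when the lights came on, and they were sampled at 0 h (28 °C) and at 6, 9 and 24 h (21 °C). Every genotype and time had 1 library, so no group had a replicate. By the labels, 0 h and 24 h fall at the same time of day, whereas at 6 h and 9 h the time of day and the time since transfer cannot be told apart. The slh1 libraries held 227021, 443899, 446893 and 232897 tags at 0, 6, 9 and 24 h, and the No-0 libraries held 411730, 353104, 410657 and 573997 tags. All levels are in TPM, tags scaled to a library total of 1000000 sense and antisense tags, so 1 tag is worth 1.74 to 4.4 TPM and a floor of 3 tags 5.23 to 13.2 TPM. In whole leaves, fewer cells of a type and less RNA per cell cannot be told apart. The leaf label was checked by 5 mesophyll genes, all of them members: the sense tags of the Rubisco small subunit gene RBCS1A lay between 13223 and 19011 TPM and those of the light-harvesting gene LHCB2.1 between 473 and 3360 TPM.

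Antisense transcripts run in the direction opposite to a gene's mRNA and are complementary to it. In plants some are known to act in cis on the gene they overlap, by changing its chromatin, by pairing with its mRNA to give small RNAs, or by colliding polymerases. Others come from a neighbouring gene that reads through its terminator, or carry no known role. An oligo-dT primer can also anneal to a run of A inside an RNA, so the longest uninterrupted stretch of A on that strand of each locus was recorded with the counts.

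The members fell into classes by that run. Of the 358 members, 152 had an antisense run of at least 15 A within the annotated locus (a long run), against 5.25% of the other antisense loci. They were 18.6% of the 816 antisense loci with such a run, and members made up 43.3% of the 240 antisense loci whose run reached 20. The other 206 members had shorter runs and were 1.70% of the 12140 antisense loci without a long run. The class with long runs held 72.2% of the tags of all members. The stretches around the run at the most abundant loci are printed first, 5′ to 3′ on the antisense strand, with the run in capitals and with the positions of the TAIR10.1 assembly. At the first 4 loci the run goes on past the end of the printed stretch.
AT5G18610, chr5:6195658-6195687, minus strand: acaagaagAAAAAAAAAAAAAAAAAAAAAA
PRIN2, chr1:3469867-3469896, minus strand: tgagggtgAAAAAAAAAAAAAAAAAAAAAA
AT2G30230, chr2:12897762-12897791, minus strand: ccggatccAAAAAAAAAAAAAAAAAAAAAA
AT1G10095, chr1:3297388-3297417, plus strand: gaaaatagAAAAAAAAAAAAAAAAAAAAAA
ALY2, chr3:1539965-1539994, minus strand: attcctcAAAAAAAAAAAAAAAActtcaat
UMAMIT22, chr1:16444071-16444130, plus strand: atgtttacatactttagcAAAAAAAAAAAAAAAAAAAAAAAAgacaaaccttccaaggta
The full runs are 37 A at AT5G18610, 29 at PRIN2, 36 at AT2G30230, 31 at AT1G10095, 16 at ALY2 and 24 at UMAMIT22. The first 5 lie in an untranslated exon of the sense gene and the last in an intron. For contrast, the longest runs at the most abundant member with a short run, RBCS1A, and at the member that varied most, the dehydrin gene AT1G54410, are 7 and 9 A, both in an intron.
RBCS1A, chr1:25049003-25049062, plus strand: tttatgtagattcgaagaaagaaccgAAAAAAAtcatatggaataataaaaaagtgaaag
AT1G54410, chr1:20310127-20310186, plus strand: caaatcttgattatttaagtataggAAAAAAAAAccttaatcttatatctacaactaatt

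The tag tables hold no positions, so whether the tags of a locus lie at its run was not tested. Among members, a longer run went with a higher share of antisense tags at the locus. Since antisense tags chose the members, a locus with few sense tags could enter only with a high share. In the class with long runs the median locus had 94.7% of its tags on the antisense strand and 25.9 sense tags in all. In the class with shorter runs the median locus had 11.8% antisense tags and 1613 sense tags. Among the other antisense loci, below the threshold, the median share was 22.5% with long runs and 9.30% with shorter runs. Among all members, 162 had more antisense than sense tags and 196 had fewer. The classes were not clean: 25 of the 206 members with short runs were over 50% antisense, and 15 of the 152 with long runs were under 50%.

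**Figure D1:**
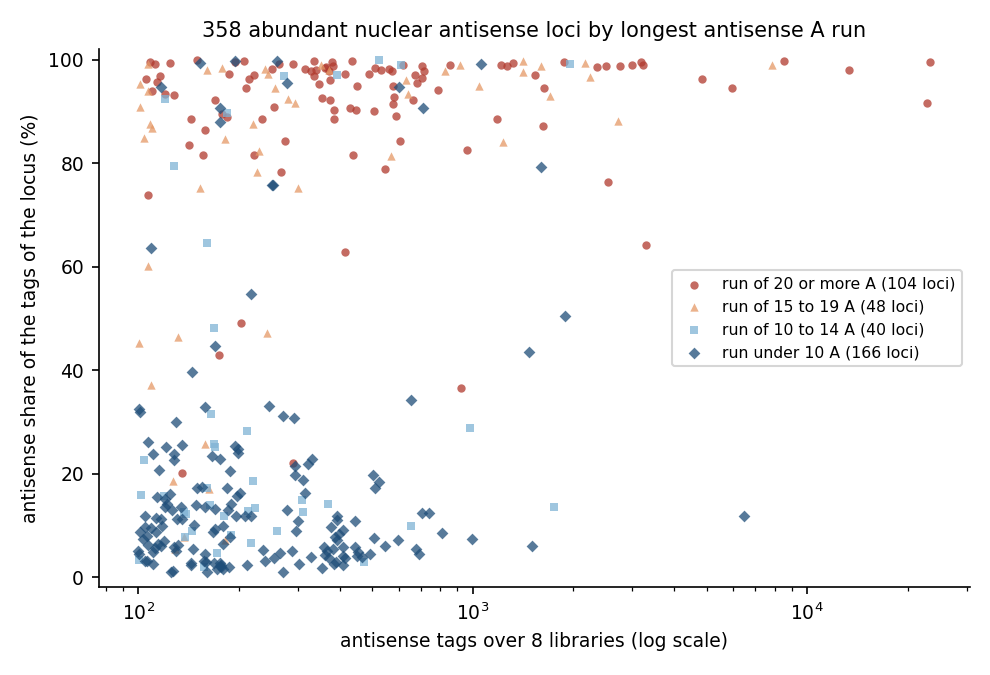
Antisense share of all tags of a locus (y axis, percent) against its antisense tags summed over the 8 libraries (x axis, log scale), 1 point per member, in 4 classes of the longest A run. The 104 loci with 20 or more A crowd along the top of the plot, whereas the 166 with fewer than 10 A mostly lie under 25%.

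Counts that were not whole numbers mark reads that fell on more than 1 gene and were split between them. Such loci may carry reads of a copy elsewhere or of an overlapping gene. Of the members with long runs, 148 of 152 had a fractional count in at least 1 library, against 92 of the 206 with shorter runs. The other antisense loci were fractional in 19.5% of cases. Only 68 members, 19%, overlapped a gene annotated on the opposite strand, against 26.1% of the other antisense loci. A convergent neighbour, facing the member tail to tail, was the next gene downstream for 34.1% of members and for 37.5% of the others, and lay within 500 bp for 16.8% and 15.4%. Before counting, the authors had given antisense reads within 500 bp of another gene's 3′ end to that gene. The effect of that step on these shares was not tested.

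By annotation, 338 members were protein-coding, 12 were pseudogenes or transcribed pseudogenes, 7 were non-coding RNA genes and 1 was a miRNA gene. The photosystem and Rubisco set was taken by symbol: LHCA, LHCB or CAB with a number, PSA or PSB with a letter, RBCS, or RCA. Members with other symbols, LHB1B1, LHB1B2, NPQ4 and PSB27 among them, lay outside it. Of 43 genes of this set with antisense tags, 35 were members, and of 309 ribosomal protein genes, 19 were. None of the 11 core clock genes looked up was a member (the highest, LHY, had 20 antisense tags). Likewise, none of 10 genes with a published antisense transcript, FLC among them, had more than 4.5 antisense tags. The sense rows of these 10 were low too, with 61.5 tags at P5CDH, 30 at FLC and 12 or fewer at the others. Just inside the threshold stood RD19 with 100, RLP33 with 100.4 and GSTF9 with 100.5 antisense tags, and just outside it AT5G47930 with 98, PRXR1 with 99 and ARFA1E with 99.5. The total was reached without the highest library at 288 members, and 349 members had a tag in every library.

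The most abundant antisense locus, AT5G18610, encodes a protein kinase superfamily member on chromosome 5 (6192327 to 6195753, plus strand) and gave 23311 antisense tags, 9.54% of the tags of all members. Its antisense level was 5281, 6466, 6149 and 7497 TPM in slh1 at 0, 6, 9 and 24 h and 6974, 7946, 8153 and 9970 TPM in No-0. The 24 h library was the highest of each genotype, and slh1 lay below No-0 at each time. The sense row of AT5G18610 held 23.9 to 47.0 TPM in any library, and the antisense share stayed between 99.3% and 99.7%. PRIN2, a gene needed for plastid gene expression (chromosome 1, 3469512 to 3471488, plus strand), had antisense levels of 5757, 6985, 6645 and 7775 TPM in slh1 and 5843, 7132, 8011 and 9387 TPM in No-0, with a share of 87.2% to 94.2%. At AT2G30230, the third by abundance with 13309 tags, 3101, 3286, 3705 and 4058 TPM in slh1 stood against 3033, 4726, 5633 and 5775 TPM in No-0, so that the genotypes were close at 0 h and apart from 6 h on.

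The next loci in abundance also carried long runs, except RBCS1A. AT1G10095, a prenylyltransferase family gene, had 8522 antisense tags and 99.8% of its tags on that strand, and ALY2, a homologue of the Drosophila gene always early, had 7866 tags and 98.9%. UMAMIT22, of the EamA-like transporter family, had 5938 antisense tags and a share of 94.5%, AT4G09770 of the TRAF-like family 96.2%, and AT4G31570 and AT5G09910 99.0% and 99.6%. GH3.9, a putative auxin-conjugating enzyme, had 98.9% antisense tags, and KIS, a tubulin folding cofactor, 93.0%. AT1G47860 was lower, with 64.1%, and its share ranged from 46.5% to 63.0% in slh1 and from 64.6% to 73.0% in No-0. The 10 most abundant members together held 40.8% of the tags of all members.

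RBCS1A was the most abundant member with a short run and also the gene with the most sense tags, 48587 against 6487 antisense tags. Its antisense level was 2193, 1978, 1749 and 1864 TPM in slh1 and 2103, 1817, 2041 and 2701 TPM in No-0. Its antisense share was nearly the same in all libraries, between 11.2% and 12.5% in slh1 and between 10.9% and 12.4% in No-0. Other genes of high sense level had small shares: 5.96% at RBCS3B, 1.66% at the chlorophyll a/b-binding protein gene CAB1, 1.05% at PSBR of photosystem II and 0.892% at LHB1B2. These families have near-identical copies and fractional counts, so the values of single family members are uncertain.

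Of the 25 members with short runs that were over 50% antisense, 22 had no annotated gene on the other strand. This did not set them apart, since only 31 of all 206 members with short runs had such a gene. Fractional counts were found at 19 of the 25, against 92 of the 206, so these loci may carry reads of a copy elsewhere or of an overlapping gene. The 3 given here, all with fractional counts, were picked after their values were seen. AT7SL-1, an RNA of the signal recognition particle, had 259 antisense tags and 0.5 sense tags. ATYKT62, of the synaptobrevin family, had a run of 14 A, 1950 antisense tags and a share of 99.1%. AT5G02370, of a microtubule motor family, had 1597 antisense tags and 79.3%. Its next gene downstream, at 515 bp and facing it, was MT2B, a metallothionein gene with 982, 2621, 2877 and 4068 sense TPM in slh1 and 877, 3010, 3392 and 3774 TPM in No-0. The antisense level of AT5G02370 was 225, 533, 561 and 711 TPM in slh1 and 194, 493, 633 and 660 TPM in No-0, which was 14.9% to 18.6% of the tags of both in slh1 and 14.1% to 18.1% in No-0. Thus the order of times was that of MT2B in both genotypes. The pair was looked at after its values were seen, and its part in the antisense counts was not tested.

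Summed over the members with long runs, the antisense level was 42672, 51832, 47283 and 57180 TPM in slh1 at 0, 6, 9 and 24 h and 55957, 59729, 59908 and 70586 TPM in No-0. It was lower in slh1 at each time and highest at 24 h in both genotypes. The members with shorter runs summed to 29146, 21458, 19610 and 21757 TPM in slh1 and to 23966, 20398, 21874 and 20780 TPM in No-0, highest at 0 h in both. Without the photosystem and Rubisco set, 172 of them were left. Their sum was highest at 0 h in slh1 (19016 TPM) but at 9 h in No-0 (16573 TPM, against 15103 TPM at 0 h). Sense rows of loci with a long run on the sense strand moved in the same order of libraries as the members with long runs, with 40531, 47840, 44365 and 51809 TPM in slh1 and 48344, 52129, 52935 and 61610 TPM in No-0. The part of this order of libraries in the levels of single members was not tested.

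**Figure D2:**
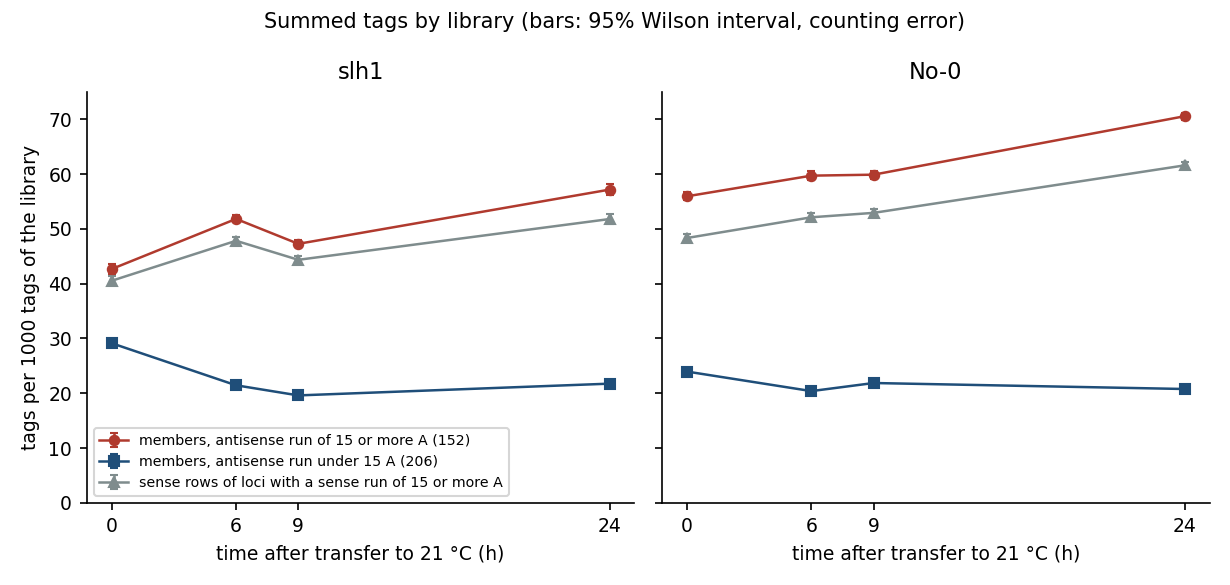
Summed tags per 1000 tags of the library (y axis, from 0) against hours after transfer to 21 °C (x axis) for members with antisense runs of 15 or more A, members with shorter runs, and sense rows with sense runs of 15 or more A, slh1 left and No-0 right; bars are 95% Wilson intervals of counting error. The 2 curves for long runs both dip at 9 h in slh1 and both rise at each step in No-0. The curve for short runs is highest at 0 h.

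Single members followed these sums in part. Of the 152 members with long runs, 45 were lower in slh1 than in No-0 at all 4 times and 3 were higher. Of the 206 with shorter runs, 15 were lower at all times and 22 higher. Over all rows with 100 or more tags, 6.86% were lower and 8.16% were higher at all times. The 24 h library was the highest one for 70 of the 152 members with long runs in slh1 and for 70 in No-0, the 6 h library for 60 in slh1 and for 19 in No-0, and the 0 h library for 14 in slh1 and for 56 in No-0. Among members with shorter runs the 0 h library was the most frequent maximum, for 79 of 206 in slh1 and for 63 in No-0. Among the 172 outside the photosystem and Rubisco set it was the maximum for 56 in slh1 and 39 in No-0. In No-0, the 9 h library was the maximum for 52 of them and the 24 h library for 44.

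Spread between libraries was measured by the index of dispersion, the chi-square of the 8 counts about their expectation from the library totals divided by its 7 degrees of freedom. Counting error alone keeps the index under 2.01 in 95% of loci. The index was above that limit at 279 of the 358 members, 77.9%, against 87.3% of the nuclear sense rows with 100 or more tags. The share was 71.1% with long runs and 83.0% with shorter runs. It was 72.5% of the 240 members with split reads, which make up 148 of the 152 with long runs, and 89.0% of the 118 with whole counts. The part of split reads in the difference between the classes was not tested. Abundance counts here, since the index grows with the tags of a locus. Among loci with 100 to 200 tags, 39.5% of members with long runs were above the limit, against 73.5% of members with shorter runs and 80.2% of sense rows. Among loci with 500 or more tags, the shares were 96.6%, 100% and 98.5% in that order of sets. AT1G54410 had the highest index of all members, 527, ahead of AT2G30230 with 122 and AT5G18610 with 119. TRX3, with only 310 antisense tags, reached 77.0.

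AT1G54410 encodes a dehydrin, a protein family linked to water deficit and cold (chromosome 1, 20309473 to 20310850, minus strand). Its antisense level was 2916, 372, 286 and 60.1 TPM in slh1 at 0, 6, 9 and 24 h, against 1795, 232, 185 and 33.1 TPM in No-0. The 0 h library stood above all others in both genotypes, and the lowest was 24 h. At 24 h the antisense level was 48.5-fold lower than at 0 h in slh1 and 54.2-fold lower in No-0. The sense level was 1295, 739, 597 and 103 TPM in slh1 and 1384, 385, 351 and 164 TPM in No-0, so it was also lowest at 24 h. Antisense tags made up 69.2% (95% exact interval 66.2 to 72.2) of the tags of AT1G54410 at 0 h in slh1 and 56.5% (53.7 to 59.2) in No-0, whereas at 24 h they were 36.8% (21.8 to 54.0) and 16.8% (10.4 to 25). The locus had whole counts in every library and no annotated gene on the opposite strand. Its convergent neighbour AT1G54400, 626 bp away, had 0 sense tags in all libraries.

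Changes over time were tested with edgeR, a quasi-likelihood test on rounded counts fitted to 9027 sense and antisense rows, with genotype as a block. For want of replicates its error is the disagreement between the genotypes, and all p-values measure only the spread between these libraries. All 358 members passed the filter on low counts. At 24 h against 0 h, 95 members passed an adjusted p of 0.05, 45 higher and 50 lower. This is beside 18.1% of all rows tested (9.39% higher and 8.67% lower), which were not chosen for abundance as the members were. With a filter at a mean of 20 tags, 69 of 254 members passed, beside 921 of 2388 rows, a larger share of the rows than of the members. With the first filter, DESeq2 called 56 members. Without the slh1 0 h library the count was 62, without the No-0 0 h library 58, without the slh1 24 h library 72 and without the No-0 24 h library 79, fits added after the data were seen in which the lone sample of a time is assumed to vary like the others. Among the 288 members that reach 100 tags without their highest library, 39 were higher and 45 lower at 24 h. At 6 h, 40 members passed, 18 higher and 22 lower, beside 4.49% of all rows (2.84% higher and 1.65% lower). At 9 h, 62 passed, 23 higher and 39 lower, beside 7.72% (4.35% higher and 3.37% lower). Most were members with shorter runs: 36 of the higher and 48 of the lower ones at 24 h, and all 40 at 6 h. The median log2 fold change at 24 h was 0.07 over the members and 0.00 over all rows. These 3 comparisons share the 0 h libraries.

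At members with a sense row high enough to test, 253 of the 358, the sense row passed at 21.3% at 6 h, 29.6% at 9 h and 38.3% at 24 h. Of the 95 members that changed at 24 h, the sense row changed in the same direction at 59, in the opposite direction at 0, and did not pass at 27, while 9 sense rows were too low to test. At 6 h the sense row changed in the same direction at 20 of 40 members, did not pass at 16 and was too low to test at 4, and at 9 h it changed in the same direction at 37 of 62, with 0 in the opposite direction at either time.

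**Figure D3:**
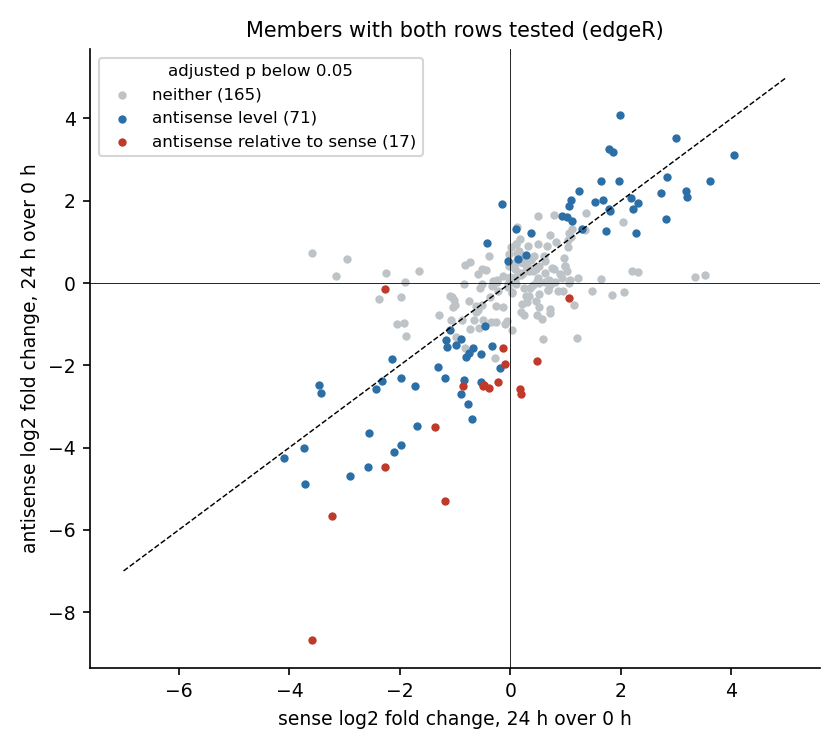
Antisense log2 fold change at 24 h over 0 h (y axis) against the sense log2 fold change (x axis) for the 253 members with both rows tested in edgeR; the dashed line marks equal change. Blue points, 71 loci, passed for the antisense level and not for antisense relative to sense, whether or not the sense row passed. Red points, 17 loci, passed for antisense relative to sense and lie away from the line, 16 of them below it.

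Among the members whose antisense level fell at 24 h were a dehydrin, a thioredoxin and a reductase gene. At AT1G54410 it fell by 5.66 ± 0.34 on the log2 scale (SE, edgeR adjusted p 7.8e-52), against 3.24 for the sense row. TRX3, a cytosolic thioredoxin, had antisense levels of 493, 115, 31.3 and 21.5 TPM in slh1 and 233, 36.8, 24.4 and 15.7 TPM in No-0, each value lower than the one before it. Its antisense level dropped by 4.12 ± 0.47 at 24 h (edgeR adjusted p 1.1e-15) and its sense level dropped by 2.1. FNR2, a leaf ferredoxin-NADP reductase, had 286, 56.3, 82.8 and 8.59 antisense TPM in slh1 and 172, 25.5, 19.5 and 6.97 TPM in No-0. It reached the threshold for members only with the libraries of its highest time counted, so its choice was not independent of this fall. CCL, a gene of unknown role named for its likeness to CCR genes, had 524, 327, 168 and 30.1 TPM in slh1 and 306, 99.1, 341 and 10.5 TPM in No-0, so that the 24 h library was the lowest in both genotypes and the 9 h libraries differed.

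GRP7, a glycine-rich RNA-binding protein under circadian control, had an antisense level of 159, 167 and 421 TPM in slh1 at 0, 6 and 9 h and of 113, 144 and 368 TPM in No-0, and no antisense tag was counted at 24 h in either genotype. With a floor of 3 tags in a library, the 24 h level was at least 12.3-fold lower than at 0 h in slh1 and at least 21.6-fold lower in No-0. The sense level of GRP7 moved the same way, with 2119, 2030, 6289 and 137 TPM in slh1 and 1418, 2186, 6952 and 150 TPM in No-0. At 24 h there were 32 sense tags in slh1 and 86 in No-0, and 0 antisense tags allow a share of up to 10.9% and 4.20% (95% exact intervals), beside 6.96% and 7.38% at 0 h.

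The antisense level rose at 24 h at another set of members. PIP2A, an aquaporin of the plasma membrane, had 17.6, 149, 40.3 and 232 antisense TPM in slh1 and 55.9, 223, 53.6 and 447 TPM in No-0. The 6 h and 24 h libraries were high and the 0 h and 9 h libraries low in both genotypes. Its antisense level at 24 h was 13.2-fold higher than at 0 h in slh1 and 8.01-fold higher in No-0, and it rose by 3.18 ± 0.42 on the log2 scale (edgeR adjusted p 4.0e-12) against 1.86 for the sense row of PIP2A. AT5G21020, an uncharacterized protein gene, had 35.2, 74.3, 35.8 and 262 TPM in slh1 and 12.1, 59.5, 117 and 225 TPM in No-0, and its log2 fold change at 24 h was 3.52. AT7SL-1 had 22.0, 36.8, 43.3 and 222 TPM in slh1 and 9.72, 82.6, 59.3 and 190 TPM in No-0, highest at 24 h in both, with a log2 fold change of 3.85. AT4G04925, also uncharacterized, had 4.4, 9.01, 17.9 and 120 TPM in slh1 and 7.29, 8.50, 9.74 and 101 TPM in No-0, with 0 h values of 1 to 3 tags. AT4G04925 and AT7SL-1 reached the threshold for members only with their 24 h libraries counted, so their choice was not independent of this rise.

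A maximum at 9 h marked 2 further loci. MT2A, a metallothionein, had 48.5, 69.8, 248 and 103 antisense TPM in slh1 and 36.4, 105, 263 and 88.9 TPM in No-0. Its sense level also peaked at 9 h, with 2717 TPM in slh1 and 3762 in No-0. AT1G13609, a defensin-like gene with 88.0% antisense tags, had 4.4, 83.4, 181 and 8.59 antisense TPM in slh1 and 17.0, 51.0, 68.2 and 3.48 TPM in No-0. It reached the threshold for members only with its 9 h libraries counted, so its choice was not independent of this maximum. AT1G13930, an oleosin-like gene, was low at 24 h only, with 96.9, 169, 145 and 8.59 TPM in slh1 and 143, 176, 180 and 1.74 TPM in No-0.

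**Figure D4:**
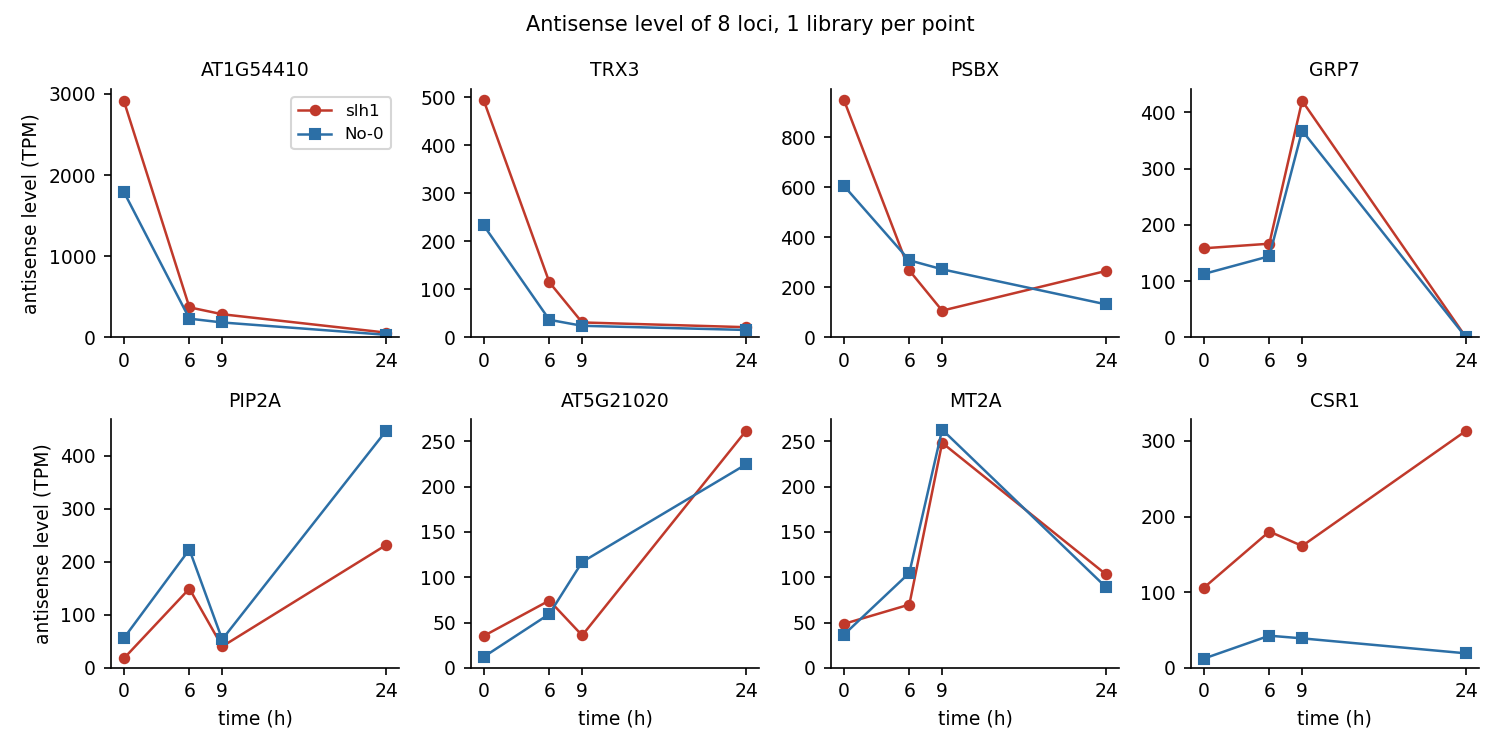
Antisense TPM (y axis, from 0, own scale per panel) against hours after transfer (x axis) at 8 members, slh1 in red and No-0 in blue, 1 library per point. AT1G54410, TRX3 and PSBX were highest at 0 h in both genotypes, GRP7 and MT2A at 9 h, PIP2A and AT5G21020 at 24 h, and CSR1 was higher in slh1 at each time.

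The 35 photosystem and Rubisco members were lower after the transfer more often than higher. Their antisense rows passed the test as higher and lower at 0 and 10 loci at 6 h, at 0 and 21 at 9 h, and at 2 and 12 at 24 h. Their sense rows passed as higher and lower at 2 and 2 loci, 1 and 12, and 5 and 4 at the same times. The median log2 fold change of the antisense rows at 24 h was -0.59 and that of the sense rows -0.11. In the 19 ribosomal protein members, antisense rows passed as higher at 6, 4 and 6 loci at 6, 9 and 24 h and as lower at 1 locus each time, with sense rows higher at 6, 9 and 10. AT5G47700, a 60S acidic ribosomal protein gene, had 8.81, 31.5, 112 and 47.2 antisense TPM in slh1 and 4.86, 62.3, 48.7 and 74.9 TPM in No-0. RPL12-A, of the plastid ribosome, was the one that fell at each time, with 132, 18, 13.4 and 12.9 TPM in slh1 and 97.2, 32.6, 17.0 and 15.7 TPM in No-0. RPL12-A reached the threshold for members only with the libraries of its highest time counted.

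Antisense relative to sense was then tested in edgeR with both strands of each library in one model, over the 2414 loci with enough tags on both strands, 308 of them members. At 6 h against 0 h, 8 members passed, all of them lower and all photosystem or Rubisco genes. They were the only loci that passed, 0.331% of all loci tested. At 9 h, 18 members passed as lower, 11 of them photosystem or Rubisco genes, beside 0.953%, which is 23 loci with the members included. At 24 h, 17 members passed, 1 higher and 16 lower, 9 of them photosystem or Rubisco genes. This is beside 0.787% (0.0414% higher and 0.746% lower), 19 loci with the members included. The other loci tested had fewer than 100 antisense tags. With a filter at 20 tags on each strand and 100 in all, 18 of 277 members passed at 24 h, beside 21 of 1232 loci. With the first filter, the count of members at 24 h was 6 without the slh1 0 h library, 11 without the slh1 24 h library, 14 without the No-0 0 h library and 1, the plastocyanin gene DRT112, without the No-0 24 h library. These fits were also added after the data were seen. The median log2 change of antisense relative to sense was -0.57, -0.99 and -0.73 over these 35 genes at 6, 9 and 24 h, against -0.23, -0.34 and -0.34 over all loci tested.

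PSBX, a small subunit of photosystem II (chromosome 2, 2587729 to 2588448, minus strand), was among the members that fell relative to sense. Its antisense level was 951, 268, 107 and 266 TPM in slh1 and 607, 309, 273 and 132 TPM in No-0, while its sense level was 3986, 4406, 3489 and 3469 TPM in slh1 and 4097, 4486, 3998 and 3920 TPM in No-0. The antisense share of PSBX was thus 19.3%, 5.73%, 2.99% and 7.13% in slh1 and 12.9%, 6.44%, 6.39% and 3.27% in No-0. At 24 h its antisense level fell by 1.89 ± 0.34 on the log2 scale relative to sense (edgeR adjusted p 1.7e-05), and by 1.20 without the No-0 24 h library (edgeR adjusted p 0.76). PSAO and PSAK, subunits of photosystem I, had shares of 9.16% and 15.7% at 0 h in slh1 and of 7.17% and 12.8% in No-0, with 1.82% to 6.64% in the libraries at 21 °C of both genotypes. At PSAE-1, also of photosystem I, the share was 1.09% at 24 h against 6.72% at 0 h in slh1, and 0.628% against 4.63% in No-0. The convergent neighbours of PSBX (AT2G06510), PSAO and PSAE-1 lay 42, 139 and 1854 bp away. At PSAK the next gene, 206 bp away, was not convergent. The part of neighbouring genes in the antisense counts of these loci was not tested.

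**Figure D5:**
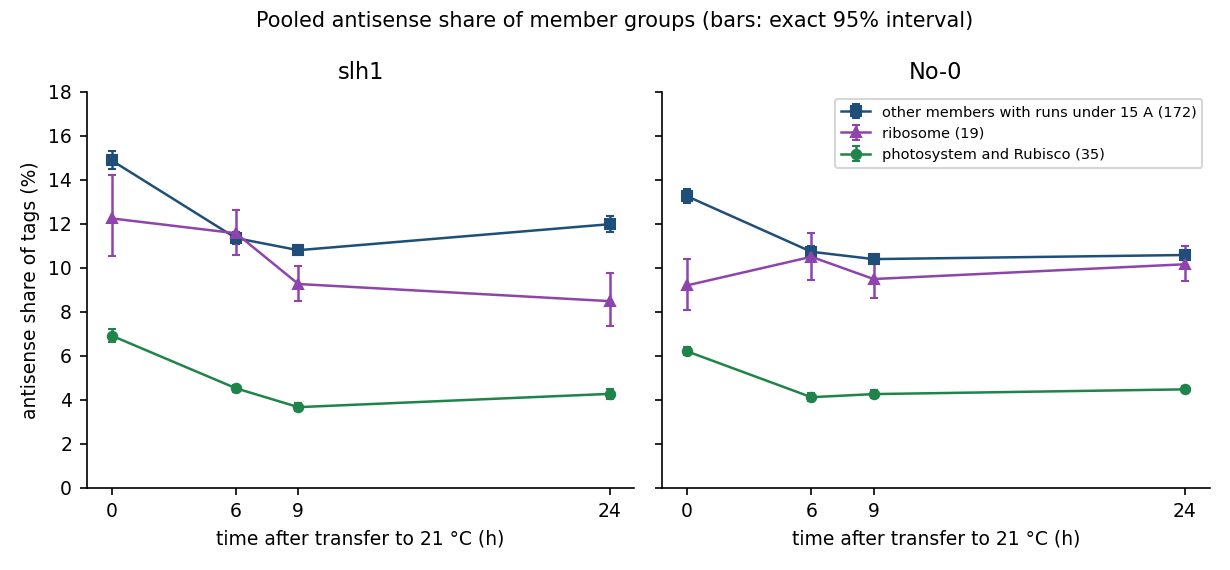
Pooled antisense share of all tags (y axis, percent, from 0) against hours after transfer (x axis) for 35 photosystem and Rubisco members, 19 ribosomal protein members and 172 further members with runs under 15 A (the last set includes ribosomal protein members), slh1 left and No-0 right; bars are exact 95% intervals of counting error. The photosystem and Rubisco share was highest at 0 h in both genotypes.

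Pooled over the 35 photosystem and Rubisco members, the antisense share was 6.92%, 4.52%, 3.67% and 4.27% in slh1 at 0, 6, 9 and 24 h and 6.21%, 4.12%, 4.26% and 4.48% in No-0. The exact intervals at 0 h (6.65 to 7.20 in slh1, 6.02 to 6.41 in No-0) did not overlap those of the later libraries. They cover counting error within 1 library and leave out the spread between libraries. The share at 24 h was below that at 0 h in both genotypes at 25 of the 35 loci, and at 69 of the 172 other members with short runs. The pooled share of those 172 was 14.9%, 11.4%, 10.8% and 12% in slh1 and 13.3%, 10.7%, 10.4% and 10.6% in No-0, also highest at 0 h. The pooled share of the members with long runs ran the other way, with 83.4% at 0 h and 87.7% to 88.2% later in slh1, and 87.3% at 0 h and 89.6% to 90.3% later in No-0. BGLU18, a beta-glucosidase with a run of 24 A, was the 1 member that rose relative to sense at 24 h, a call lost without the slh1 0 h, slh1 24 h or No-0 24 h library (edgeR adjusted p 0.80, 0.41 and 0.26). Its antisense level of 182 to 396 TPM in all libraries stood beside sense levels of 118 TPM at 24 h against 837 at 0 h in slh1, and of 240 against 906 in No-0.

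For slh1 against No-0 at 21 °C, edgeR took the 6, 9 and 24 h libraries together with the time as a block, so its error is the change of the genotype difference between times. It called 10 members, 1 higher and 9 lower in slh1, beside 0.244% of all rows tested (0.0554% higher and 0.188% lower). The count was 3 with DESeq2, 3 with libraries scaled to total tags (1 higher and 2 lower), 0 without the time block, and 2, 3 and 24 without the 6, 9 and 24 h pair of libraries. It was 12 with limma-voom, 14 with nuclear rows only and 10 with a filter at a total of 10 tags. With a filter at a mean of 20 tags, 1 of 254 members passed, beside 2 of 2388 rows. The 9 lower ones all had runs of 15 or more A, the class whose summed antisense level was lower in slh1 at each time. The summed sense level of that class was not lower in slh1 at each time (7643 TPM at 24 h, against 7609 TPM in No-0). Sense rows of loci with a long run on the sense strand, another set, were lower in slh1 at each time. The median log2 fold change was -0.21 over all members, -0.28 over those with long runs and -0.17 over those with shorter runs, against -0.03 over all rows. At 28 °C there was 1 library of each genotype, and the error of the test comes from the libraries of the other times. There edgeR called 0 members (32 at an unadjusted p under 0.05), beside 0.0332% of all rows (0.0111% higher and 0.0222% lower). The fold change at 28 °C was below 0 for 139 of the 152 members with long runs, with a median of -0.60, and the slh1 library was the smallest of the 8. No member passed a test of the difference between both genotype effects (0 called by edgeR, 22 at an unadjusted p under 0.05), a contrast added after the data were seen.

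CSR1, the gene of acetolactate synthase in branched-chain amino acid synthesis (chromosome 3, 18001283 to 18003749, minus strand), was the member called higher in slh1. Its antisense level was 106, 180, 161 and 313 TPM in slh1, against 12.1, 42.5, 39.0 and 19.2 TPM in No-0. The lowest slh1 library was above the highest No-0 library. The log2 fold change at 21 °C was 2.52 ± 0.37 (edgeR adjusted p 1.6e-05). It was 2.55 without the time block and 2.64 with a filter at a mean of 20 tags (edgeR adjusted p 0.93 and 0.14), and DESeq2 gave no adjusted p for CSR1. The sense level of CSR1 differed likewise, with 1938, 1836, 1669 and 2877 TPM in slh1 and 216, 198, 224 and 131 TPM in No-0, and a log2 fold change of 3.35. The antisense share was 5.17%, 8.94%, 8.80% and 9.83% in slh1 and 5.32%, 17.6%, 14.8% and 12.8% in No-0. At 28 °C, with 1 library of each genotype, the sense level of CSR1 was 3.03 higher in slh1 on the log2 scale.

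Of the members called lower, AT5G41140, a myosin heavy chain-related gene (run of 20 A), had 239, 233, 169 and 134 antisense TPM in slh1, against 366, 649, 557 and 682 TPM in No-0. The groups did not overlap, and the log2 fold change at 21 °C was -1.99 ± 0.25 (edgeR adjusted p 9.2e-08). UMAMIT22 had 1454, 1359, 1253 and 1501 TPM in slh1 and 1759, 2335, 2219 and 2849 TPM in No-0, -1.01 ± 0.17 on the log2 scale (edgeR adjusted p 0.00043). AT4G39756, of the kelch repeat family, AT4G20365, an uncharacterized gene, and AT1G47860 had log2 fold changes of -0.98, -0.97 and -0.95. Their slh1 libraries were below the No-0 libraries of the same time in each case.

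Antisense relative to sense did not pass at any member between slh1 and No-0. At 21 °C edgeR called 0 members (21 at an unadjusted p under 0.05), beside 0.0% of all loci tested, with a median log2 change of 0.00 over the members and 0.06 over all loci. At 28 °C it called 0 members (16 at an unadjusted p under 0.05), also beside 0.0%. With 1 library per group, this does not show that the shares were equal.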

How the data were processed

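EXPRSS libraries of slh1 and No-0 leaves were used, 1 for each of the 2 genotypes at each of 4 times, grouped by their titles. A sample of reads without a barcode was not used here. The authors deposited expected counts of tags per locus and strand, unscaled. Per the methods of the study, reads were truncated to 36 bases, filtered by quality and aligned to TAIR10, and the notes of the submitters list Bowtie 0.12.8, Novoalign 2.08.03 and R 2.15.3. The methods also name BWA for the paired reads, so the aligner behind these counts is uncertain. Reads on up to 10 genes were split equally and reads on more were discarded, and antisense reads within 500 bp of the 3′ end of another gene were given to that gene. Loci with a prefix in the name were taken as antisense, which the files do not state. PCR copies count as tags, for want of molecular identifiers, and intervals cover counting error only.

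Members were matched by locus name to TAIR10.1 in RefSeq (358 of 358), which gave symbols, positions, sequences and the longest A run of each strand. Counts were rounded and tested in R 4.3.3 with edgeR 4.0.16 (quasi-likelihood, TMM, filterByExpr by genotype and temperature) with Benjamini-Hochberg adjustment over all rows tested at 0.05. Residual degrees of freedom were 2 between genotypes and 3 between times. The model of antisense relative to sense took loci with 10 or more tags on each strand and 50 in all. Shares have exact binomial intervals and levels Wilson intervals (scipy 1.17.1). A count was called whole within 1e-06. Alternatives were other scalings, filters, DESeq2 1.42.0, limma 3.58.1 (voom), no time block, nuclear rows only and left-out libraries. The procedure was run on simulated counts in which libraries differed only by depth, random error and planted changes. Its error rate in these unreplicated libraries was not tested. Members, classes and gene lists were chosen with earlier results of these data known. Named loci were the 12 with the most antisense tags, the 5 with 100 or more sense tags and the highest antisense share, the 5 with the most sense tags, the 8 most dispersed with whole counts, up to 5 called in each direction of each comparison, and 3 on each side of the threshold. AT5G02370, ATYKT62, AT7SL-1 among mostly antisense loci, and the neighbouring gene MT2B, were singled out after their values were seen.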

Additional observations from a re-analysis of the deposited data

How the results depend on the processing

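No choice tried turned the direction of the named members called between genotypes at 21 °C, at 24 h against 0 h or in antisense relative to sense at 24 h, but calls were lost. For slh1 against No-0 at 21 °C, 10 members were called in edgeR with TMM. RLE size factors gave 6, total tags 3 (1 higher and 2 lower, with the median of all rows at 0.14 against -0.03), a mean of at least 20 tags 1, DESeq2 3 and no time block 0, against 12 with limma-voom, 14 with nuclear rows only and 10 with a total of at least 10 tags. A table without the loci that carry at least 15 A in a row on either strand, chosen after seeing the data, gave 1, since 9 of the 10 were removed, and the 1 left, CSR1, was called. Leaving out 1 pair of libraries gave 2 (without 6 h), 3 (without 9 h) and 24 (without 24 h). None of the 10 was called in every alternative that tested it. At 24 h against 0 h, 95 members were called. DESeq2 called 56. Leaving out the 6 h or 9 h pair, which is not in that contrast, gave 85 and 91, and leaving out 1 of the 4 compared libraries, chosen after seeing the data, gave 58 to 79. Of the 95, 35 were called in every alternative and 40 in every one that tested them, since 22 were not tested at a mean of at least 20 tags and 11 without long runs. Antisense relative to sense at 24 h, with 17 calls, gave 14 and 17 without the 6 h or 9 h pair and 1 to 14 without 1 of the compared libraries, and none of the 17 was called in every alternative. Between genotypes it stayed at 0, also without 1 pair. Above counting error were 279 of 358 members (77.9%), 105 of the 118 with whole counts (89.0%), 171 of the 206 without long runs (83.0%) and 259 to 281 of all without 1 library. The median antisense share of 31.3% was 16.2% at a threshold of 50 tags, 84.3% at 200, 11.8% with whole counts and 11.8% without long runs, and 30.3% to 32.1% without 1 library. With 1 library per group the depth of slh1 at 0 h and 24 h limits low loci most.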
